A study of Mus musculus with 19 samples.

Results

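Mice after a seizure were compared with mice acutely exposed to odors, cell class by cell class, in the medial amygdala. The medial amygdala is a nucleus that takes olfactory and pheromonal input and is tied to social and defensive behavior. All animals were male C57BL/6J mice, and all cells were dissociated with Act-Seq, a protocol built to limit transcription while tissue is taken apart, and sequenced by Drop-seq, which counts transcripts as unique molecular identifiers (UMIs) in droplets. Chosen by group label, the members were 6 of the 16 Act-Seq libraries in the deposited table of all cells (19 samples in the series): 2 seizure libraries (seizure 1 from mice of 9 weeks, seizure 2 from mice of 8 weeks) and 4 odor libraries (odor 1 and 2 from mice of 9 weeks, odor 3 and 4 of 8 weeks). They held 9030 of 20679 cells. The fits also took their spread from 5 libraries of naive control mice (all of 8 weeks; 4 in mural cells) and 4 of mice under acute immobilization stress (immobilization 1 and 4 of 8 weeks, 2 and 3 of 9 weeks; 3 in mural cells). The labels name neither the agent that gave the seizure, nor the odors, nor the time between exposure and dissection. By the labels, odor libraries contributed to cell typing with immediate early genes set aside and entered no immediate early gene comparison of the study, so the question asked here, which genes of which cells separate a seizure from an odor, is additional to it. Every p-value here rests on the scatter among libraries. No label states whether libraries of the same group and age were taken from different mice, so scatter among those could be purely technical. The 2 seizure libraries differ in age, as do odor 1 and 2 from odor 3 and 4, so scatter across ages includes different mice.

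Strong synaptic input raises calcium and cAMP in a cell, and kinases then activate transcription factors already present, such as CREB and serum response factor. The genes they switch on within minutes, without new protein synthesis, are the immediate early genes: transcription factors of the AP-1 (Fos, Jun), Egr and Nr4a families, and effectors such as Arc. Glia and vessel cells have such programs too, and corticosteroid hormones released under stress act through the glucocorticoid receptor on a further set of genes, among them Tsc22d3, Fkbp5 and Sgk1.

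Cells carried the authors' classes, and counts were summed per library and class. The 6 libraries held 2490 astrocytes, 363 endothelial cells, 933 microglia, 130 mural cells (pericytes and vascular smooth muscle), 982 oligodendrocytes, 378 oligodendrocyte precursors and 3754 cells of the neuron class. The sums that entered a fit ran from 14730 UMIs (endothelial cells, odor 4) to 1586770 UMIs (neurons, seizure 1). Each class's marker list was highest in that class, although in precursors the oligodendrocyte markers summed higher than their own (17627 against 7960 CPM over the 6 libraries). In the neuron class the astrocyte markers summed to 20519 and 22206 CPM after seizure and 21626, 20989, 23995 and 22273 CPM after odor, against 38568 and 40109.9 CPM after seizure and 39289, 40402, 41705 and 41047 CPM after odor in astrocytes, so this class held much astrocyte RNA in every library. Of its 3754 cells, 978 were in the authors' separate neuron table. Odor 4 stood apart from the other libraries with 425 cells against 1412 to 2154, and with 25.9% oligodendrocytes against 6.45% to 15.6%. With 9 mural cells it was left out of the mural fit. The 6 libraries shared 2 cell barcodes.

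In total 79 pairs of a class and a gene passed the threshold (adjusted p under 0.05 within the class, edgeR quasi-likelihood test), and 73 of these were higher after seizure. In simulated counts, genes lowered by a log2 of 2 were recovered less often than genes raised by as much (82% against 98% in astrocytes, 48% against 94% in microglia). The part of this in the small number of lower calls was not tested. Astrocytes had 19 genes higher (0.180% of 10575 tested) and 3 lower (0.0284%). Endothelial cells had 19 higher (0.479% of 3965) and 1 lower (0.0252%), and microglia 11 higher (0.158% of 6966) and 1 lower (0.0144%). Neurons had 10 higher (0.0976% of 10250) and 0 lower, where 473 genes had an unadjusted p under 0.05 in either direction with edgeR and DESeq2 also called 0 lower. Mural cells had 6 higher (0.588% of 1020) and 0 lower with either tool (70 genes at an unadjusted p under 0.05 with edgeR). Oligodendrocytes had 3 higher (0.0402% of 7467) and 1 lower (0.0134%), and precursors 5 higher (0.100% of 4997) and 0 lower with edgeR, against 1 lower with DESeq2 (324 genes at an unadjusted p under 0.05 with edgeR). The seizure and odor libraries did not overlap in level, given throughout as CPM (a gene's UMIs scaled to counts per 1000000 UMIs of a library in a class) for 78 of the 79 (all but astrocyte Emd), where 13.9% of all genes tested did not overlap. Of the 79 calls, 28 were kept whichever of the 6 libraries was left out, and 23 of these, from all classes but neurons and mural cells, in every other alternative fit run as well. Neurons alone also had fits on parts of their cells, and neuronal Fos, Junb, Egr1 and Arc were lost only in those. Without odor 4 the counts called were 25 in astrocytes, 19 in endothelial cells, 10 in microglia, 2 in oligodendrocytes, 6 in precursors and 14 in neurons.

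The naive libraries of the same table, all from mice of 8 weeks, place these differences. For 64 of the 73 higher calls both seizure libraries lay above every naive library of the class. For 7 of the 73 every odor library lay below every naive one, as in astrocyte Zfp36l2 and Jund and endothelial Cyr61, so the odor level sits below the naive level there as well. Neither count was taken over all genes tested, so no background share stands beside either. All 79 differences had the same sign when seizure 1 was set against odor 1 and 2 (9 weeks) and when seizure 2 was set against odor 3 and 4 (8 weeks). For 78 of them the lack of overlap fixes this sign in advance, so it adds no support within an age.

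The calls shared by most classes were those of immediate early genes. Nr4a1, which encodes the orphan nuclear receptor Nur77, was called higher in 5 classes, and Egr1, a zinc finger factor, in 4. Fos, Junb, Jun, Btg2 (an antiproliferative cofactor), Dusp1 (a phosphatase that turns off MAP kinases), Cyr61 (a secreted matricellular protein, Ccn1 in RefSeq) and Adamts1 (an extracellular metalloprotease) were each called in 3. The plot of log2 differences for these 9 genes shows that 1 estimate, Nr4a1 in oligodendrocytes, fell below 0.

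**Figure D1:**
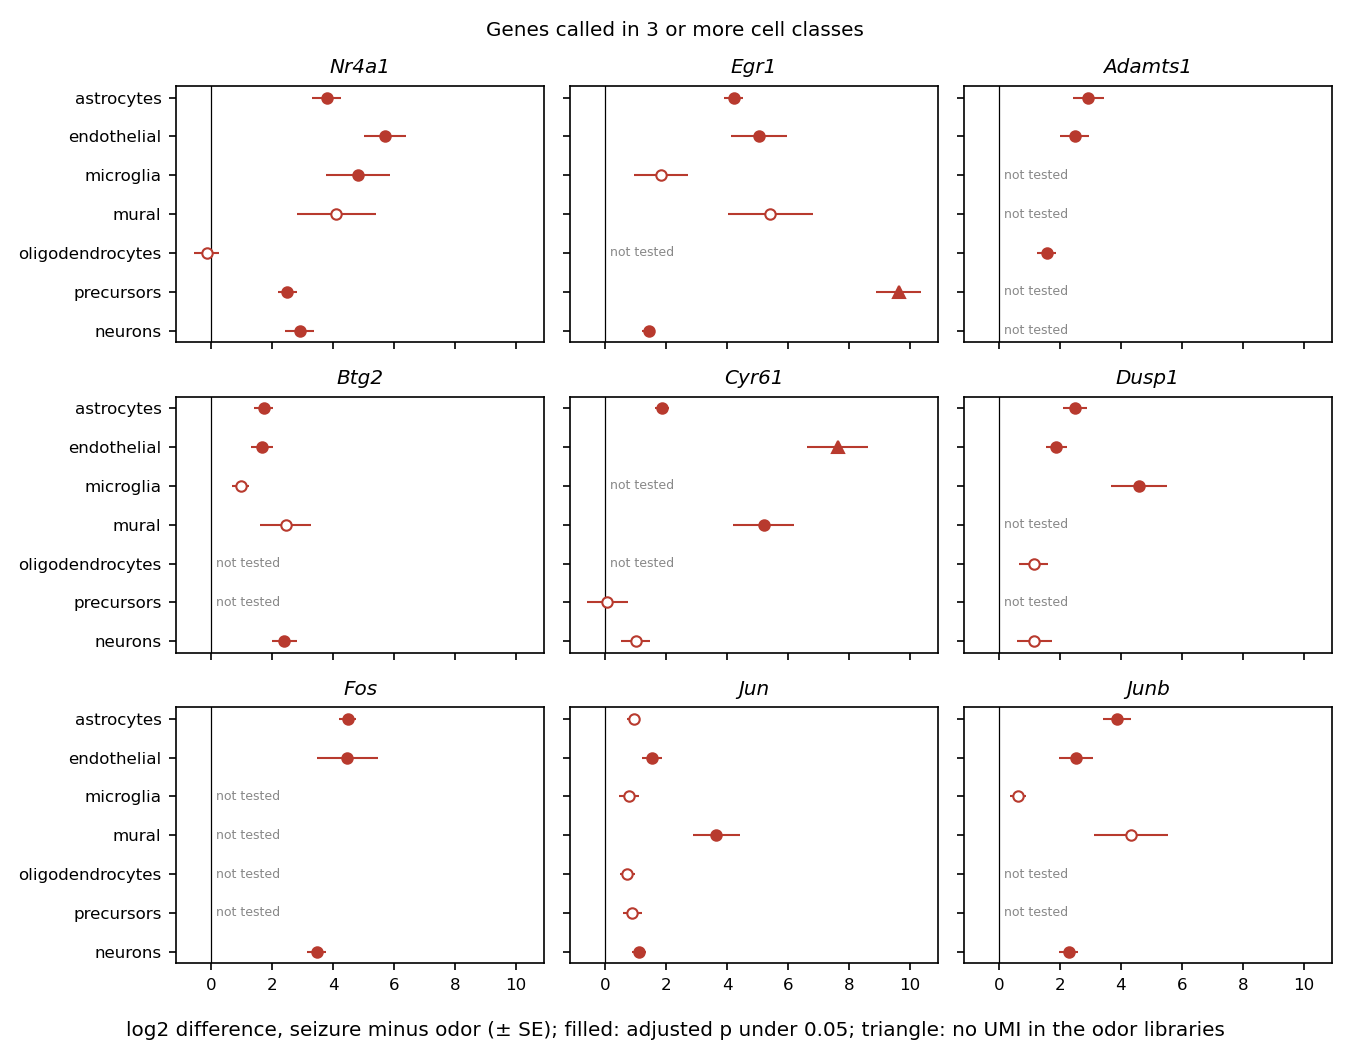
Log2 difference of seizure minus odor (x axis, bars ± SE) in each cell class (y axis) for the 9 genes called in 3 or more classes. Filled symbols have an adjusted p under 0.05, open symbols do not, and triangles mark genes with no UMI in the odor libraries, whose fitted size is no bound. Nr4a1 is filled in 5 of its 7 classes and lies at -0.16 ± 0.42 in oligodendrocytes.

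Levels are given in the order seizure 1 and 2, then odor 1 to 4. In astrocytes, Nr4a1 stood at 76.6 and 54.8 CPM after seizure and 8.65, 1.40, 3.18 and 6.57 CPM after odor (log2 difference 3.78 ± 0.47, adjusted p = 3.27e-06). In endothelial cells it stood at 377 and 346 CPM after seizure and 0, 16.5, 0 and 0 CPM after odor. Odor 2 was the 1 odor library with endothelial Nr4a1 UMIs, and 109 UMIs against 2 gave a pooled ratio of 60.5 (95% exact counting interval 16.4 to 506) (adjusted p = 3.24e-06). Microglial Nr4a1 stood at 50.6 and 58.7 CPM after seizure and 0, 0, 4.35 and 0 CPM after odor (adjusted p = 0.0198), on 22 UMIs against 1, and this call was lost in 5 of the 6 leave-one-out fits (highest adjusted p = 0.222). In precursors the gene was already present after odor: it stood at 519 and 556 CPM after seizure and 60.7, 116, 57.8 and 156 CPM after odor (log2 difference 2.49 ± 0.32, adjusted p = 3.92e-07), and naive precursors at 70.2 to 106 CPM. In mature oligodendrocytes the groups overlapped, at 30.7 and 35.8 CPM after seizure and 43.5, 35.1, 37.8 and 29.9 CPM after odor (log2 difference -0.16 ± 0.42, adjusted p = 0.998). By the test of the difference between classes, the oligodendrocyte log2 difference minus that of astrocytes was -3.98 ± 0.58, adjusted p = 2.52e-08.

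Egr1 had its largest fitted difference in precursors, a size that is no bound because the odor group held no UMI. There it stood at 556 and 1068 CPM after seizure and 0, 0, 0 and 0 CPM after odor, on 292 UMIs against 0, which is at least 91.8-fold higher when the odor group as a whole is given the floor of 3 counts (adjusted p = 6.63e-14). Naive precursors held 0 to 39.96 CPM. By the test of the difference between classes, the precursor difference minus that of astrocytes did not pass (6.65 ± 1.71, adjusted p = 0.0895). In astrocytes Egr1 stood at 210.04 and 167 CPM after seizure and 18.4, 4.20, 7.43 and 6.57 CPM after odor (log2 difference 4.22 ± 0.31, adjusted p = 3.86e-12). Endothelial Egr1 stood at 109 and 372 CPM after seizure and 0, 8.26, 10.6 and 0 CPM after odor (adjusted p = 0.00221). The endothelial level of seizure 1 lay nearer to the naive range of 0 to 90.2 CPM than that of seizure 2, and without seizure 2 the call was lost (adjusted p = 0.138). In the neuron class the odor libraries already held Egr1 above every naive library, at 132 and 192 CPM after seizure and 62.9, 54.3, 63.2 and 34.2 CPM after odor (log2 difference 1.42 ± 0.21, adjusted p = 0.000125), with 0 to 32.6 CPM in naive libraries. The neuron difference was smaller than that of astrocytes by the test of the difference (-2.83 ± 0.33, adjusted p = 3.05e-14).

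**Figure D2:**
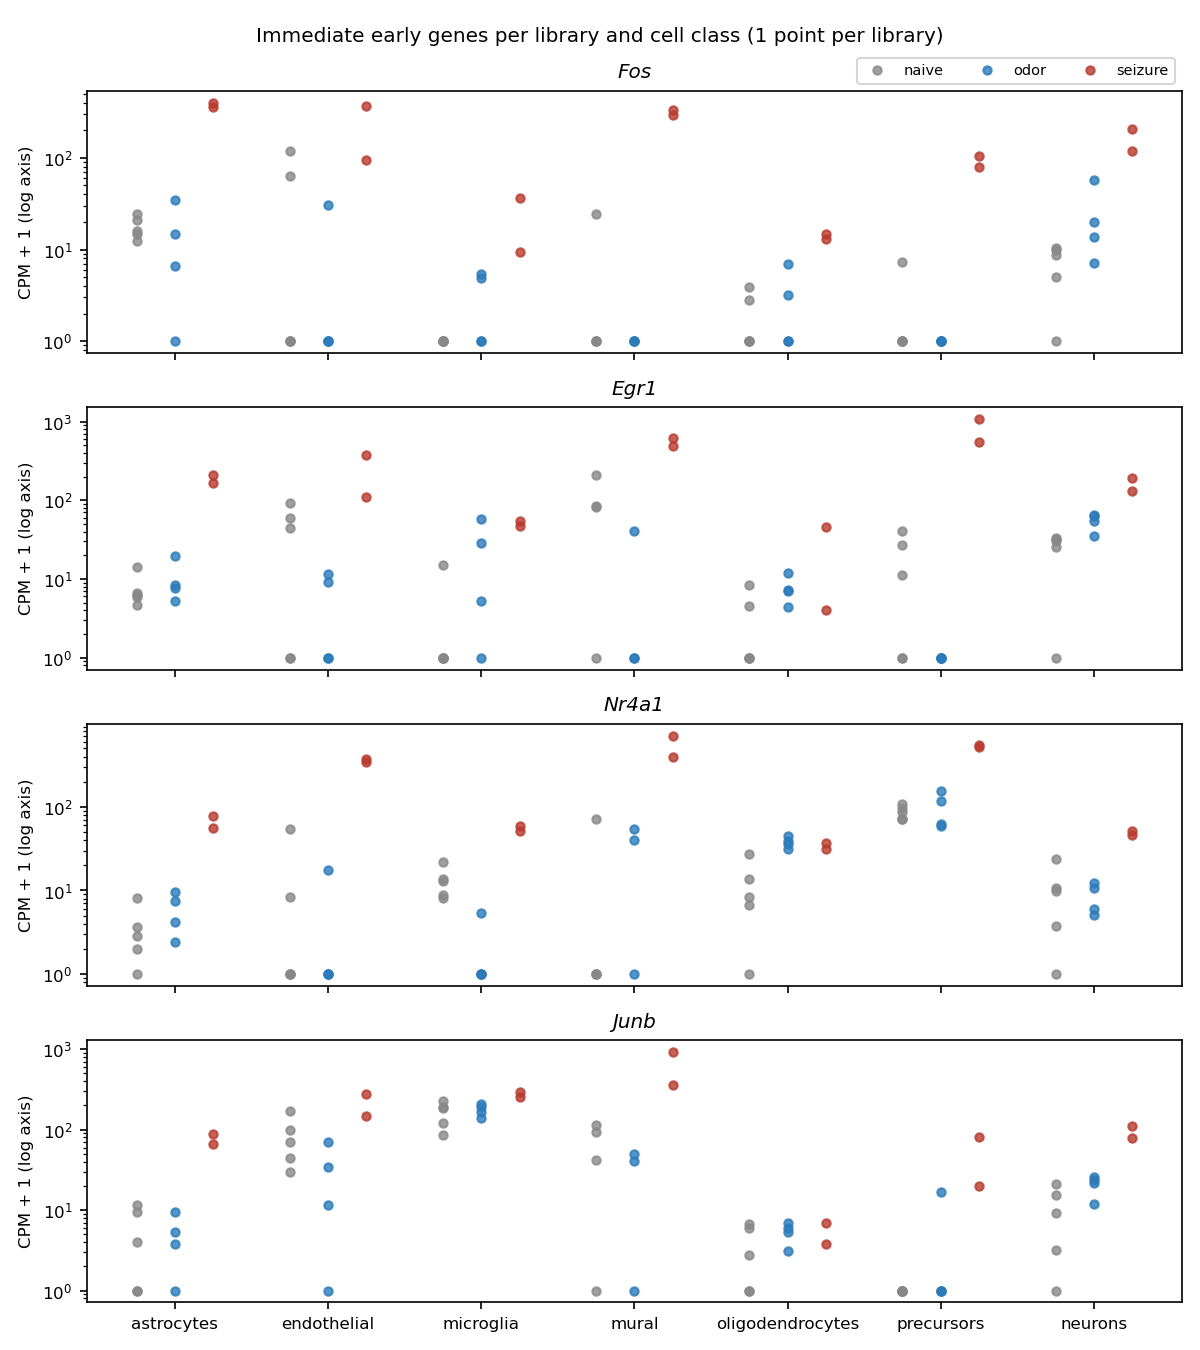
Level of Fos, Egr1, Nr4a1 and Junb in CPM plus 1 (log axis) for each library (1 point) in each cell class (x axis), with naive libraries in grey, odor in blue and seizure in red. Precursor Egr1 is at 0 CPM in all 4 odor libraries and at 556 and 1068 CPM after seizure, while Nr4a1 in oligodendrocytes overlaps between odor and seizure.

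Fos, the AP-1 subunit used most often as a mark of activated cells (chr12:85473890-85477273, plus strand), stood in astrocytes at 360.2 and 397 CPM after seizure and 33.5, 5.60, 13.8 and 0 CPM after odor (log2 difference 4.47 ± 0.28, adjusted p = 5.21e-14). Both seizure libraries lay far above the highest odor library, odor 1, and naive astrocytes held 11.3 to 23.4 CPM. Across leave-one-out fits this difference was 4.16 to 5.35. In the neuron class Fos stood at 119 and 207 CPM after seizure and 6.19, 12.5, 19.1 and 56.96 CPM after odor (log2 difference 3.45 ± 0.32, adjusted p = 1.62e-09). Odor 4, with 90 cells of the class, was the highest odor library there. Endothelial Fos stood at 92.8 and 363 CPM after seizure and 29.4, 0, 0 and 0 CPM after odor, on 59 UMIs against 3 (pooled ratio 21.8 (95% exact counting interval 7.12 to 109), adjusted p = 0.022). This call was lost in 4 of the 6 leave-one-out fits, that without seizure 2 among them (highest adjusted p = 0.771), and naive endothelial cells held 0 to 118 CPM. Fos did not pass the filter on low counts in the other classes: mural cells held 328 and 292 CPM after seizure and 0, 0 and 0 CPM after odor, precursors 79.4 and 105 CPM after seizure and 0, 0, 0 and 0 CPM after odor, microglia 8.44 and 35.2 CPM after seizure and 3.92, 0, 4.35 and 0 CPM after odor and oligodendrocytes 13.9 and 11.9 CPM after seizure and 2.18, 0, 0 and 5.99 CPM after odor.

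Junb, a further AP-1 subunit, stood in astrocytes at 64.8 and 86.1 CPM after seizure and 4.32, 2.80, 8.49 and 0 CPM after odor (log2 difference 3.87 ± 0.47, adjusted p = 3.27e-06). In the neuron class it stood at 78.8 and 111 CPM after seizure and 24.7, 20.9, 11.03 and 22.8 CPM after odor (log2 difference 2.29 ± 0.32, adjusted p = 5.05e-05). The groups did not overlap in either class. Microglia held Junb in every library, at 253 and 294 CPM after seizure and 188, 163, 209 and 140.3 CPM after odor, and the difference there did not pass (log2 difference 0.62 ± 0.27, adjusted p = 0.951). Microglia and astrocytes differed in this respect by the direct test (-3.26 ± 0.45, adjusted p = 5.81e-07). Dusp1 stood in astrocytes at 54.96 and 52.2 CPM after seizure and 11.9, 5.60, 9.55 and 13.1 CPM after odor (log2 difference 2.499 ± 0.39, adjusted p = 0.000294). In endothelial cells it stood at 382 and 415 CPM after seizure and 108, 82.6, 138 and 136 CPM after odor (log2 difference 1.88 ± 0.35, adjusted p = 0.00284). In microglia it rested on 33 UMIs against 2, both odor UMIs from odor 4 (pooled ratio 30.5 (95% exact counting interval 7.81 to 263), adjusted p = 0.00567), and the call was lost in 4 of the 6 leave-one-out fits.

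Promoters of the genes that moved together are shown because CREB, one of the factors that start this program, binds the cAMP response element, whose letters are TGACGTCA or the half-site TGACG. Of the 9 genes, 8 had an entry in the RefSeq promoter table (GRCm38.p6), Cyr61 under the symbol Ccn1, and Egr1 had none. In the 250 bases before the start, 7 of the 8 held TGACG on either strand (all but Jun), and 17.8% of all 32851 promoters in the table did. Full TGACGTCA was found in Btg2 and Dusp1 and in 1.55% of all promoters. The CArG box, the site of serum response factor, searched on both strands of the same 250 bases, was found in 0 of the 8 and in 1.47% of all promoters. Sites further upstream were not searched and Egr1 was not covered, so this count does not show that the genes lack such a site. The GC content of the 8 was 54.8% to 74.4% (median of all promoters 52.4%), and its part in these matches was not tested. The 200 bases before the start, 5′ to 3′ on the gene's strand, follow for 4 of them, with each TGACG or its reverse complement CGTCA in capitals.
Fos (chr12:85473690-85473889, plus strand): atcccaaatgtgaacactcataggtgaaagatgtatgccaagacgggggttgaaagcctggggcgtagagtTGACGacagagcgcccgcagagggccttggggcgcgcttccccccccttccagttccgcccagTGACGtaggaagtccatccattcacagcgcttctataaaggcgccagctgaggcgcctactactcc
Nr4a1 (chr15:101266646-101266845, plus strand): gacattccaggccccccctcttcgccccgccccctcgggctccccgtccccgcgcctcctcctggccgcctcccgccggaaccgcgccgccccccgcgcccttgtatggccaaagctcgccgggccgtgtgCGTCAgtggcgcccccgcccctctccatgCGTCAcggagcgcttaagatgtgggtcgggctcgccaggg
Btg2 (chr1:134079156-134079355, minus strand): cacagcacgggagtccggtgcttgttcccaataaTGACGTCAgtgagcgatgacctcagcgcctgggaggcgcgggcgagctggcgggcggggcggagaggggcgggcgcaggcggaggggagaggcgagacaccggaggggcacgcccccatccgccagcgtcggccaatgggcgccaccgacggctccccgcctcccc
Dusp1 (chr17:26508473-26508672, minus strand): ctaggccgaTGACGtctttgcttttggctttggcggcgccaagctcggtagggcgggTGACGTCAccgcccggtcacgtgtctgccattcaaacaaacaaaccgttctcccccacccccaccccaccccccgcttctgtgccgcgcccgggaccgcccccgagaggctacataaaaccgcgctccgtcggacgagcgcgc
Counted back from the start, the Fos matches begin at -129 and -66, the Nr4a1 matches inside this window at -69 and -40, the Btg2 pair that forms its full element at -166 and -163, and the Dusp1 matches at -191, -143 and -140. A match is a description of the letters and says nothing of binding in these cells.

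In astrocytes 6 of the 19 genes called higher were immediate early transcription factors. Of the 25 listed immediate early transcription factors, 12 were tested and 6 passed higher (Egr1, Fos, Ier2, Junb, Jund, Nr4a1), with median log2 1.35 over 12 tested of 25 listed, beside 0.0045 over all genes tested. Of all genes tested in astrocytes, 0.180% were called higher. A gene could pass the filter on low counts through the seizure libraries alone. List counts and medians here and below are therefore descriptions and no independent support. The lists were also chosen with earlier results of these data known. Zfp36l2, which binds AU-rich elements and promotes mRNA decay (chr17:84183931-84187947, minus strand), stood at 150.2 and 149 CPM after seizure and 48.6, 58.8, 39.3 and 26.3 CPM after odor (log2 difference 1.70 ± 0.21, adjusted p = 3.27e-06). The odor libraries were below and the seizure libraries above every naive library (76.1 to 135 CPM). Its relative Zfp36 stood at 49.1 and 37.8 CPM after seizure and 5.40, 6.999, 4.24 and 0 CPM after odor (log2 difference 3.08 ± 0.51, adjusted p = 0.000686), a call lost without seizure 1 (adjusted p = 0.0861). Id1, which keeps basic helix-loop-helix factors from binding DNA, stood at 294 and 256 CPM after seizure and 92.96, 113, 87.02 and 39.4 CPM after odor (log2 difference 1.61 ± 0.22, adjusted p = 1.67e-05), with naive astrocytes at 110.4 to 196 CPM. In endothelial cells, which held far more Id1, the groups were near each other at 971 and 899 CPM after seizure and 1098, 1033, 1104 and 950.4 CPM after odor, and the classes differed by the direct test (-1.76 ± 0.32, adjusted p = 0.000149).

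Dio2, the deiodinase with which astrocytes turn thyroxine into active thyroid hormone (chr12:90724552-90738438, minus strand), stood at 289 and 358 CPM after seizure and 123, 132, 140.1 and 158 CPM after odor (log2 difference 1.28 ± 0.19, adjusted p = 0.000151). All 6 libraries lay above the naive range of 46.9 to 107 CPM, the seizure libraries the furthest. In the neuron class Dio2 overlapped between the groups at 66.8 and 120.3 CPM after seizure and 100.01, 86.3, 92.3 and 34.2 CPM after odor, and the difference from astrocytes passed (-1.32 ± 0.22, adjusted p = 6.53e-06). Cyr61 stood in astrocytes at 229.7 and 228 CPM after seizure and 67.01, 83.99, 46.7 and 46.02 CPM after odor (log2 difference 1.87 ± 0.23, adjusted p = 3.27e-06). Both seizure libraries were above the highest odor library, odor 2, and above the naive range of 22.6 to 73.4 CPM. Adamts1 (2.93 ± 0.52) and Btg2 (1.71 ± 0.32) rose in astrocytes too, and each call was lost when 1 library was left out (Adamts1 without seizure 1, adjusted p = 0.323, and Btg2 without odor 3 or seizure 2, highest adjusted p = 0.238). Smaller or less stable differences were those of Emd, which encodes the nuclear envelope protein emerin (1.22 ± 0.25), Ppp1r3c, a glycogen-targeting subunit of protein phosphatase (0.75 ± 0.16), Nkx6-2, a homeobox gene (0.84 ± 0.18), and Mir22hg, the host transcript of a microRNA (1.24 ± 0.27). Ier2 (2.59 ± 0.56), Jund (1.09 ± 0.23) and Sik1, a kinase of the CREB feedback loop (2.67 ± 0.61), completed the 19. Each of these 7 calls was lost in 2 to 6 of the 6 leave-one-out fits, always without seizure 1 among others, and Nkx6-2 and Jund did not exceed every naive library. On the list of astrocyte metabolism and transport, Dio2 was the 1 member called of 18 tested, with a median log2 of 0.01 (0.0045 over all genes).

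Astrocyte genes lower after seizure than after odor were 9330159F19Rik, Rrnad1 and Zkscan3. For 9330159F19Rik, a protein-coding gene (chr10:29211606-29230779, plus strand), the levels were 169.8 and 248 CPM after seizure and 384, 388, 436 and 479.9 CPM after odor (log2 difference -0.98 ± 0.18, adjusted p = 0.0031). The seizure libraries lay in the naive range of 164 to 248 CPM, and every odor library lay above it. The same gene was called lower in oligodendrocytes, at 100.3 and 113 CPM after seizure and 248, 255, 298 and 222 CPM after odor (log2 difference -1.27 ± 0.24, adjusted p = 0.0167), where naive libraries held 78.7 to 164 CPM. In both classes the odor group is thus the one wholly above the naive range. The astrocyte call was lost without seizure 1 (adjusted p = 0.983) and the oligodendrocyte call in 3 of the 6 leave-one-out fits. Rrnad1 stood at 53.001 and 40.5 CPM after seizure and 102, 137, 129 and 112 CPM after odor and Zkscan3, a zinc finger protein, at 124 and 129 CPM after seizure and 223, 276, 264 and 204 CPM after odor. Both seizure libraries lay below every odor and every naive library for each of the 2 genes, and each call was lost without either seizure library (highest adjusted p = 0.175 and 0.628 over the leave-one-out fits).

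Endothelial cells line the vessels and form the blood-brain barrier, and their leading gene was Apold1, an early response gene of vascular cells (chr6:134981718-134986836, plus strand). It stood at 2035 and 3347 CPM after seizure and 216, 116, 191 and 204 CPM after odor (log2 difference 3.98 ± 0.34, adjusted p = 1.23e-09). Both seizure libraries lay far above the highest odor library, odor 1, and naive libraries held 78.8 to 334 CPM. Across leave-one-out fits the difference was 3.57 to 4.31. Depp1, listed as 8430408G22Rik, followed at 818 and 925 CPM after seizure and 88.2, 157, 212 and 136 CPM after odor (log2 difference 2.55 ± 0.32, adjusted p = 4.44e-06). Neither overlapped between the groups.

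Cyr61 and Fosb, an AP-1 subunit, had no UMI in the odor endothelial cells. Cyr61 stood at 186 and 294 CPM after seizure, on 68 UMIs against 0, at least 25.2-fold higher on the same floor of 3 counts for the odor group (adjusted p = 1.58e-05). Naive endothelial cells did express it, at 21.8 to 100.3 CPM. Fosb stood at 207 and 303 CPM after seizure, at least 27.03-fold higher (adjusted p = 0.000295), with 0 to 19.6 CPM in naive libraries. Cdc42ep3, an effector of the small GTPase Cdc42, stood at 426 and 432 CPM after seizure and 176, 107, 117 and 67.9 CPM after odor (log2 difference 1.76 ± 0.30, adjusted p = 0.000986). These 3 calls, like those of Apold1, Depp1, Nr4a1 and Dusp1, held in every leave-one-out fit.

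Of 25 immediate early transcription factors, 17 were tested in endothelial cells and 9 passed higher (Atf3, Egr1, Fos, Fosb, Jun, Junb, Klf6, Maff, Nr4a1), with median log2 1.54 over 17 tested of 25 listed, beside 0.013 over all genes tested (Fosb at its lower bound leaves that median as it is). Of all genes tested in endothelial cells, 0.479% were called higher. Members such as Fosb, with no UMI after odor, could enter the tested set through the seizure libraries, so neither count nor median is independent support. Klf6 stood at 911 and 1159 CPM after seizure and 559, 331, 478 and 272 CPM after odor (log2 difference 1.29 ± 0.26, adjusted p = 0.00669) and Jun at 524 and 1089.7 CPM after seizure and 333, 264, 265 and 204 CPM after odor (log2 difference 1.54 ± 0.33, adjusted p = 0.0136). Both calls, and those of Fos, Egr1, Junb and Atf3, were lost without seizure 2. In that library the neuron markers summed in endothelial cells to 2482 CPM, against 204 to 802 CPM in the odor libraries, and oligodendrocyte markers to 2741 CPM against 883 to 1602 CPM. Most of this neuron sum was Meg3 and Snhg11, since the other neuron markers summed to 285 CPM there and to 136 to 430 CPM after odor. Blood cell markers (chiefly of red cells) ranged from 0 to 19462 CPM over the odor libraries and stood at 10220.1 and 12341 CPM after seizure. The part of these RNAs in the results was not tested. Cdkn1a, an inhibitor of the cell cycle that also responds to glucocorticoids, stood at 1549.7 and 1409.7 CPM after seizure and 392, 809.8, 700.4 and 543 CPM after odor (log2 difference 1.29 ± 0.30, adjusted p = 0.0287), a call lost in 5 of the 6 leave-one-out fits. Further calls were Adamts1 (2.49 ± 0.47), Btg2 (1.66 ± 0.35), Maff (2.11 ± 0.45), Sik1 (2.39 ± 0.54), Atf3 (2.58 ± 0.61) and Gch1, the first enzyme of tetrahydrobiopterin synthesis (1.61 ± 0.36). Each was lost in 1 to 4 leave-one-out fits. For endothelial Adamts1, Jun, Junb and Fos, the seizure libraries did not both lie above every naive library. The gene called lower was D4Wsu53e (Rsrp1 in RefSeq), at 371 and 303 CPM after seizure and 1098, 843, 998 and 679 CPM after odor (log2 difference -1.41 ± 0.30, adjusted p = 0.0135). It was called lower in microglia too, at 1055 and 675 CPM after seizure and 1913, 1858, 1743 and 2160.3 CPM after odor (log2 difference -1.05 ± 0.20, adjusted p = 0.00347), and each of these calls was lost without seizure 2.

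Mural cells wrap the vessels, and with 45 of them after seizure and 76 in the 3 odor libraries used, this was the class with the fewest genes tested. Ccl2, the chemokine that draws monocytes (chr11:82035571-82037453, plus strand), stood at 1114 and 1711 CPM after seizure and 0, 26.4 and 0 CPM after odor (odor 1 to 3), on 75 UMIs against 1, a pooled ratio of 143 (95% exact counting interval 24.9 to 5716) (adjusted p = 0.0443). Naive mural cells held no UMI of it. Cyr61 stood at 1212 and 1836 CPM after seizure and 24.7, 26.4 and 78.5 CPM after odor (log2 difference 5.20 ± 1.01, adjusted p = 0.0258), and its difference was larger than that in astrocytes by the direct test (3.34 ± 0.73, adjusted p = 0.0268). Errfi1, a feedback inhibitor of the EGF receptor, stood at 1638 and 1294 CPM after seizure and 321, 106 and 510.2 CPM after odor (log2 difference 2.34 ± 0.44, adjusted p = 0.0258). The other calls were Mt2, a metal-binding metallothionein (2.71 ± 0.54), Jun (3.65 ± 0.76) and Apold1 (2.92 ± 0.62). All 6 were lost in at least 4 of the 5 leave-one-out fits, without seizure 2 in each case, and without the 5% of cells with most UMIs 2 genes were called. Fibroblast and meningeal markers summed to 11727 CPM in seizure 2 and 9649 CPM in odor 2, and to 3140 to 4276 CPM in odor 1 and 3. Blood markers stood at 3422 CPM in seizure 2 and at 79.3 CPM or less in the others, and the part of either in the results was not tested.

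**Figure D3:**
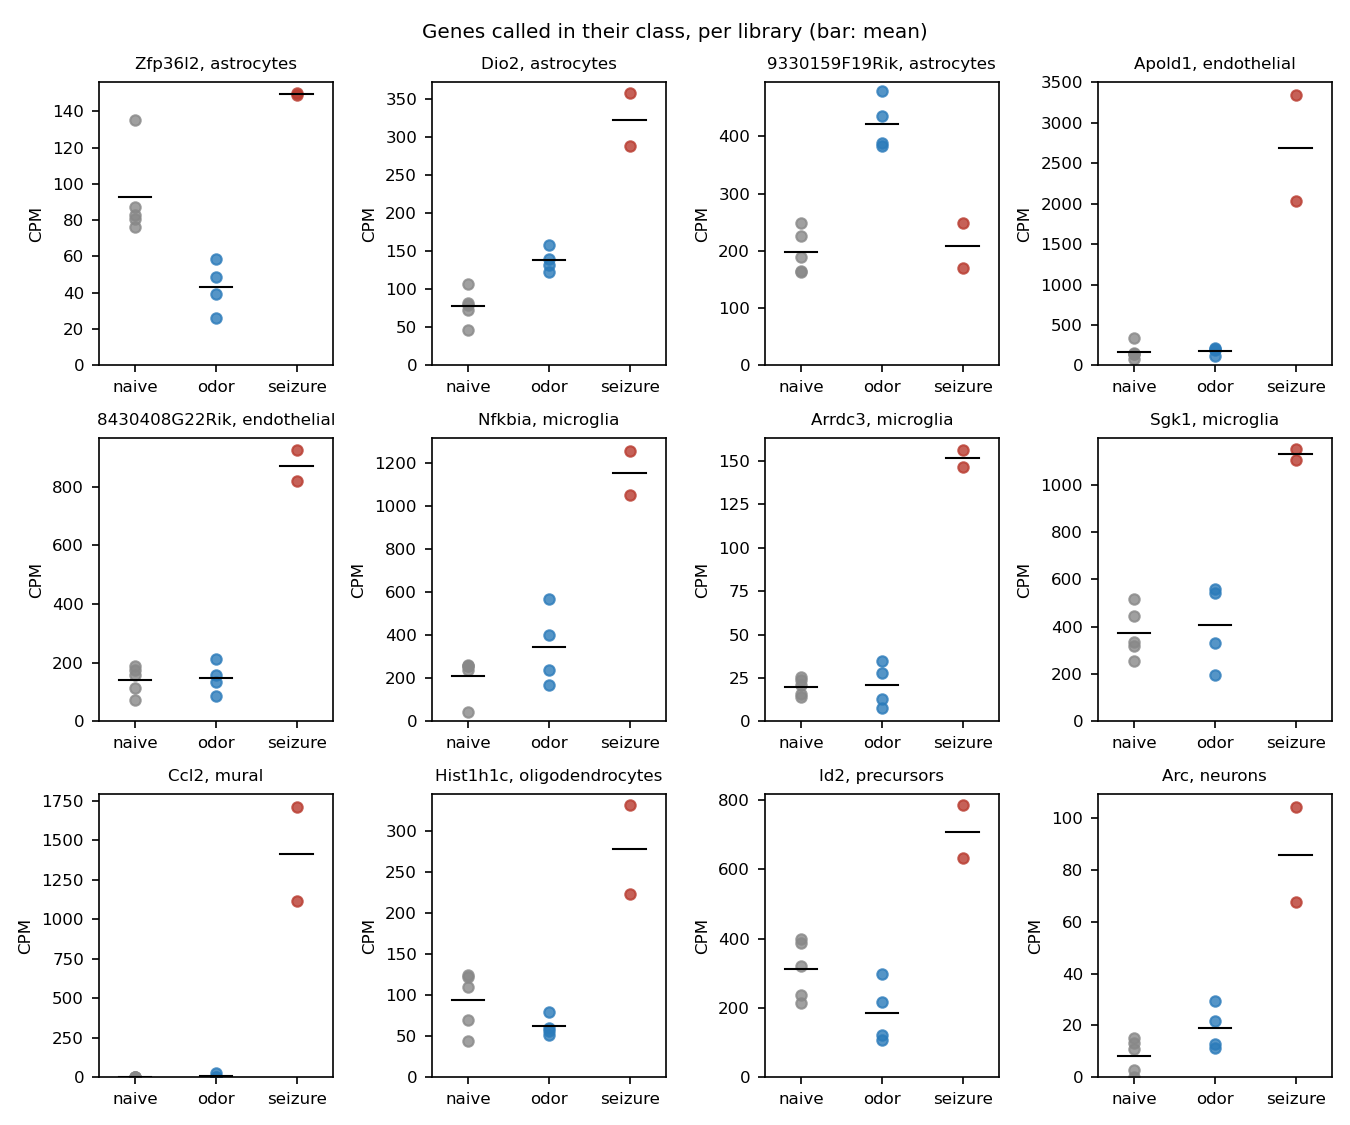
Level in CPM (y axis, from 0) of 12 genes in the class where each was called, for naive, odor and seizure libraries (1 point per library, bar at the mean). The seizure points lie above the odor points in each panel except 9330159F19Rik in astrocytes, where the odor libraries (384 to 480 CPM) lie above naive and seizure libraries.

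Microglia, the resident immune cells, had 1 call among the 8 immediate early transcription factors tested, Nr4a1, and their leading calls were Nfkbia, Arrdc3 and Sgk1. Nfkbia, which encodes the inhibitor that holds NF-kappaB in the cytoplasm (chr12:55489410-55492647, minus strand), stood at 1051 and 1257 CPM after seizure and 239, 568, 399.8 and 168 CPM after odor (log2 difference 1.66 ± 0.25, adjusted p = 6.47e-05). Arrdc3, an arrestin-domain adaptor of receptor trafficking (chr13:80883384-80896042, plus strand), stood at 156 and 147 CPM after seizure and 7.84, 12.9, 34.8 and 28.1 CPM after odor (log2 difference 3.02 ± 0.45, adjusted p = 6.47e-05). Sgk1, a kinase that controls ion transport and responds to glucocorticoids, stood at 1106 and 1151 CPM after seizure and 333, 542, 561 and 196 CPM after odor (log2 difference 1.39 ± 0.23, adjusted p = 0.000416). In all 3 the seizure libraries were close to each other and above every odor and naive library, and all 3 calls held in each leave-one-out fit. The differences of Arrdc3 and Nfkbia were larger in microglia than in astrocytes by the direct test (3.36 ± 0.56, adjusted p = 7.27e-05 and 1.17 ± 0.27, adjusted p = 0.0362). Arrdc3 was also abundant in oligodendrocytes, at 449 and 508 CPM after seizure and 344, 441, 369 and 329 CPM after odor.

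Further microglial calls were H3f3b, a gene of the replacement histone H3.3 (1.12 ± 0.19), the small GTPase gene Arl4c (1.23 ± 0.24), Zzef1 (2.18 ± 0.44), Tagap, a GTPase-activating protein of immune cells (1.52 ± 0.32), and the organic anion transporter gene Slco4a1 (1.61 ± 0.37). Rgs1, a regulator of G protein signaling, was the last (1.61 ± 0.38). Each of these 6 was lost without seizure 2. The class count fell from 12 to 6 with DESeq2 and to 4 without seizure 2. Of the 23 listed genes of NF-kappaB feedback and inflammation, 10 were tested and 1 (Nfkbia) passed, with median log2 0.45 over 10 tested of 23 listed, beside -0.0028 over all genes tested. The share called higher over all genes tested in microglia was 0.158%. Homeostatic microglia genes gave 0 calls of 12 tested, with a median log2 of 0.08. Microglia of odor 1 carried astrocyte markers at 4691 CPM against 1608 to 1683 CPM in the other odor libraries, and seizure libraries at 2507 and 1621 CPM. Without odor 1, 9 genes were called.

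Mature oligodendrocytes, which make myelin, showed the fewest calls. Hist1h1c, a linker histone gene (chr13:23738808-23740367, plus strand), stood at 332 and 224 CPM after seizure and 52.2, 80.1, 56.7 and 59.9 CPM after odor (log2 difference 2.14 ± 0.26, adjusted p = 1.1e-06). It was the 1 oligodendrocyte call that held in every leave-one-out fit (1.85 to 2.39), and its difference exceeded that of astrocytes (1.65 ± 0.29, adjusted p = 4.31e-05). Adamts1 stood at 125 and 113 CPM after seizure and 56.6, 35.1, 37.8 and 23.96 CPM after odor and Sema6a, a guidance protein of the semaphorin family, at 415 and 385 CPM after seizure and 174, 230.4, 189 and 162 CPM after odor. For each of these 2 genes at least 1 seizure library lay within the naive range (59.1 to 250.2 CPM and 257 to 411 CPM) and every odor library lay below it. Both calls were lost in 5 of the 6 leave-one-out fits. Of 17 myelin genes 17 were tested and 0 called, with a median log2 of 0.062 beside -0.0075 over all genes.

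Oligodendrocyte precursors had 5 calls: Egr1 and Nr4a1, described above, and Id2, Pou3f1 and Nr3c1. Id2, an inhibitor of helix-loop-helix factors that holds precursors back from differentiation (chr12:25093799-25097140, minus strand), stood at 631 and 784 CPM after seizure and 121, 299, 107 and 219 CPM after odor (log2 difference 1.91 ± 0.31, adjusted p = 0.000173). The seizure libraries lay above every odor and naive library, and the difference exceeded that of astrocytes (1.35 ± 0.28, adjusted p = 0.00899). Pou3f1, a POU factor of the glial lineage, stood at 276 and 333 CPM after seizure and 106, 86.7, 41.3 and 125 CPM after odor (log2 difference 1.85 ± 0.39, adjusted p = 0.0204), a call lost in 4 leave-one-out fits. Nr3c1, the glucocorticoid receptor, stood at 304 and 272 CPM after seizure and 121, 116, 124 and 31.2 CPM after odor (log2 difference 1.47 ± 0.32, adjusted p = 0.0327), with naive precursors at 159 to 272 CPM, and this call was lost in all 6 leave-one-out fits. Oligodendrocyte markers in this class summed to 12532 and 10242 CPM after seizure and 18398, 17606, 29412 and 30281 CPM after odor, lower in both seizure libraries than in any odor library, and their part in the results was not tested. Listed myelin genes had a median log2 of -0.72 in precursors, with 0 of 10 tested called. In the fit of the 6 libraries alone, without the naive and immobilization libraries, 53 genes were called in precursors, 33 of them lower.

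The neuron class had 10 calls, all higher: 8 immediate early transcription factors, Arc and Btg2. Arc, which encodes a synaptic protein whose mRNA travels to dendrites (chr15:74669083-74672570, minus strand), stood at 67.4 and 104 CPM after seizure and 21.7, 29.2, 13.04 and 11.4 CPM after odor (log2 difference 2.03 ± 0.31, adjusted p = 0.000239). Egr4 stood at 58.6 and 74.3 CPM after seizure and 17.5, 25.1, 7.02 and 22.8 CPM after odor (log2 difference 2.003 ± 0.35, adjusted p = 0.00191). For both, the seizure libraries exceeded every odor and naive library. Npas4, a factor that neurons induce on calcium entry, stood at 20.2 and 31.1 CPM after seizure and 0, 2.79, 0 and 0 CPM after odor, on 55 UMIs against 2 (pooled ratio 32.8 (95% exact counting interval 8.65 to 277), adjusted p = 0.00238). Fosb stood at 24.6 and 54.1 CPM after seizure and 6.19, 9.75, 6.02 and 0 CPM after odor (log2 difference 2.42 ± 0.46, adjusted p = 0.00537). Nr4a1 stood at 45.4 and 50.02 CPM after seizure and 4.12, 9.75, 5.01 and 11.4 CPM after odor (log2 difference 2.90 ± 0.48, adjusted p = 0.00098), and Jun and Btg2 differed by 1.12 ± 0.23 and 2.39 ± 0.42. The calls of Fos, Junb, Egr1, Arc and Nr4a1 held in every leave-one-out fit, and those of Egr4, Npas4, Fosb, Jun and Btg2 were lost in 1 to 4 of them. With DESeq2 4 genes were called. Of 25 immediate early factors 17 were tested and 8 passed, with median log2 1.24 over 17 tested of 25 listed, beside 0.0085 over all genes tested. Over all genes tested in the class, 0.0976% were called higher. Here too members could enter through the seizure libraries alone, so count and median are descriptions.

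Fos, Junb and Egr1 passed both in the cells that the authors kept in their neuron table and in those that they did not. The adjusted p was 0.00378 and 0.0025 for Junb and 0.00785 and 0.0224 for Egr1, inside and outside the table. In the 978 cells of the neuron table (without odor 4, which had 5), Fos stood at 118 and 156 CPM after seizure and 7.02, 17.4 and 26.3 CPM after odor (log2 difference 2.93 ± 0.43, adjusted p = 0.000109). In the 2776 cells outside it, Fos stood at 120.4 and 248 CPM after seizure and 5.53, 9.29, 10.7 and 63.9 CPM after odor (3.91 ± 0.37, adjusted p = 1.36e-13). Arc differed by 2.30 ± 0.43 inside and 1.69 ± 0.40 outside, where its call was lost (adjusted p = 0.00658 inside and 0.0641 outside). Nr4a1 passed outside the table (adjusted p = 0.0025) and not inside (adjusted p = 0.11). Egr4 passed in neither set (adjusted p = 0.109 inside and 0.0691 outside), Fosb did not pass inside (adjusted p = 0.11) and was filtered out outside, and Npas4 was filtered out in both. The difference between the 2 sets of cells was not tested. With the 578 cells of the authors' neuron clusters N1 to N12, Fos differed by 2.57 ± 0.54 and Egr1 by 1.64 ± 0.35, and edgeR called 0 genes (lowest adjusted p 0.201 for these 2 and Junb, 297 genes at an unadjusted p under 0.05). This set was chosen after seeing the data.

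Nuclear long noncoding RNAs varied among the odor libraries of the neuron class. Meg3, a maternally expressed RNA of neurons, stood at 3958 and 4583 CPM after seizure and 1843, 1523, 370.1 and 6426 CPM after odor, and Malat1, a nuclear speckle RNA, at 3130.3 and 4959.8 CPM after seizure and 1603, 1514, 736 and 6642 CPM after odor. Odor 3 was the lowest and odor 4 the highest of all 6 libraries in both, so the odor group spanned the seizure levels. The 12 neuron markers, which include Meg3 and Snhg11, summed to 7295 and 7992 CPM after seizure and 4748, 4066, 2563 and 11097 CPM after odor. Without these 2 RNAs the sum was 2319.8 and 2124 CPM after seizure and 2253, 2054, 2017 and 2074 CPM after odor, nearly level over the 6 libraries. Neither RNA was called in neurons. By the direct test, however, the seizure minus odor differences of neurons and astrocytes differed for Malat1 (1.15 ± 0.12, adjusted p = 1.93e-17) and Meg3 (0.88 ± 0.17, adjusted p = 0.000424). The separate fits gave Meg3 0.92 in neurons and 0.67 in astrocytes, and Malat1 0.79 in neurons and -0.038 in astrocytes. For both RNAs these estimates lie closer together than by the direct test, and the reason was not tested. Of the 8 nuclear long noncoding RNAs tested in neurons, 0 were called and 8 had a log2 above 0, with a median of 0.85 beside 0.0085 over all genes. The part of these RNAs in the other results was not tested.

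Differences between classes were tested as the seizure minus odor difference of a class minus that of astrocytes, within the same 6 libraries. Neurons differed from astrocytes in 19 genes (0.178% of 10652), precursors in 15 (0.235% of 6377), microglia in 8 (0.110% of 7303), oligodendrocytes in 8 (0.0869% of 9211), endothelial cells in 4 (0.0698% of 5733) and mural cells in 2 (0.0228% of 8789). Besides the genes given above, Zfp36 differed between microglia and astrocytes (-2.62 ± 0.55, adjusted p = 0.00955), where microglial Zfp36 was not called. Nr3c1 differed between precursors and astrocytes (1.58 ± 0.35, adjusted p = 0.0272). Avp, the vasopressin gene, differed between neurons and astrocytes (3.62 ± 0.61, adjusted p = 6.53e-06) through a single library: neuron-class Avp stood at 5.04 and 729 CPM after seizure and 49.5, 27.9, 6.02 and 11.4 CPM after odor, and it was not called in neurons.

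Most genes that respond to glucocorticoids did not pass between the groups, although in some classes the listed ones passed more often than all genes tested. In astrocytes Tsc22d3, a leucine zipper protein induced by glucocorticoids, stood at 637 and 1215 CPM after seizure and 846, 1189, 964 and 868 CPM after odor and at 211 to 578 CPM in naive libraries. Its difference was -0.047 ± 0.24 (adjusted p = 1). In oligodendrocytes Sgk1 stood at 1636 and 2093 CPM after seizure and 1777, 2719.5, 2209 and 1887 CPM after odor, with naive libraries at 111 to 1619 CPM (difference -0.20 ± 0.44). Fkbp5, a cochaperone that dampens the receptor, had negative estimates in astrocytes (-1.28 ± 0.45, adjusted p = 0.63), microglia (-0.93 ± 0.32, adjusted p = 0.566) and oligodendrocytes (-1.80 ± 0.49, adjusted p = 0.267), and passed in none. In oligodendrocytes its levels were 5.57 and 23.9 CPM after seizure and 34.8, 55.1, 69.3 and 41.9 CPM after odor, without overlap, and seizure 1 was the lowest library in all 3 classes. Cdkn1a in oligodendrocytes stood at 33.4 and 80.6 CPM after seizure and 76.1, 154, 118 and 65.9 CPM after odor, against 0 to 22.7 CPM in naive libraries (difference -0.94 ± 0.38, adjusted p = 0.753).

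Of 29 listed glucocorticoid genes, 24 were tested in astrocytes and 1 passed (Dusp1), 16 in microglia and 3 passed (Dusp1, Nfkbia, Sgk1), 17 in endothelial cells and 2 passed (Cdkn1a, Dusp1), 8 in mural cells and 2 passed (Errfi1, Mt2), 21 in oligodendrocytes, 14 in precursors and 23 in neurons and 0 passed. Over all genes tested, 0.180% were called higher in astrocytes, 0.158% in microglia, 0.479% in endothelial cells and 0.588% in mural cells, each below the list's share. The list's median log2 was 0.93 in mural cells, 0.32 in microglia, 0.30 in precursors, 0.13 in endothelial cells, 0.0034 in astrocytes, -0.15 in neurons and -0.25 in oligodendrocytes, while that of all genes tested lay between -0.021 and 0.013 in each class. Ddit4, a stress-induced inhibitor of mTORC1, stood in astrocytes at 246 and 274 CPM after seizure and 165, 193, 204 and 230.1 CPM after odor (difference 0.45 ± 0.16, adjusted p = 0.625), with naive libraries at 129.7 to 157 CPM. Hes5, a Notch target, stood in astrocytes at 359 and 236 CPM after seizure and 534, 658, 475 and 316 CPM after odor (difference -0.76 ± 0.20, adjusted p = 0.156), below the naive 662 to 999.7 CPM in all 6 libraries. The metallothionein gene Mt1 stood in astrocytes at 11011 and 10882 CPM after seizure and 8546, 10617, 10599 and 7113 CPM after odor (difference 0.27 ± 0.15), with naive libraries at 5516 to 8165 CPM.

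**Figure D4:**
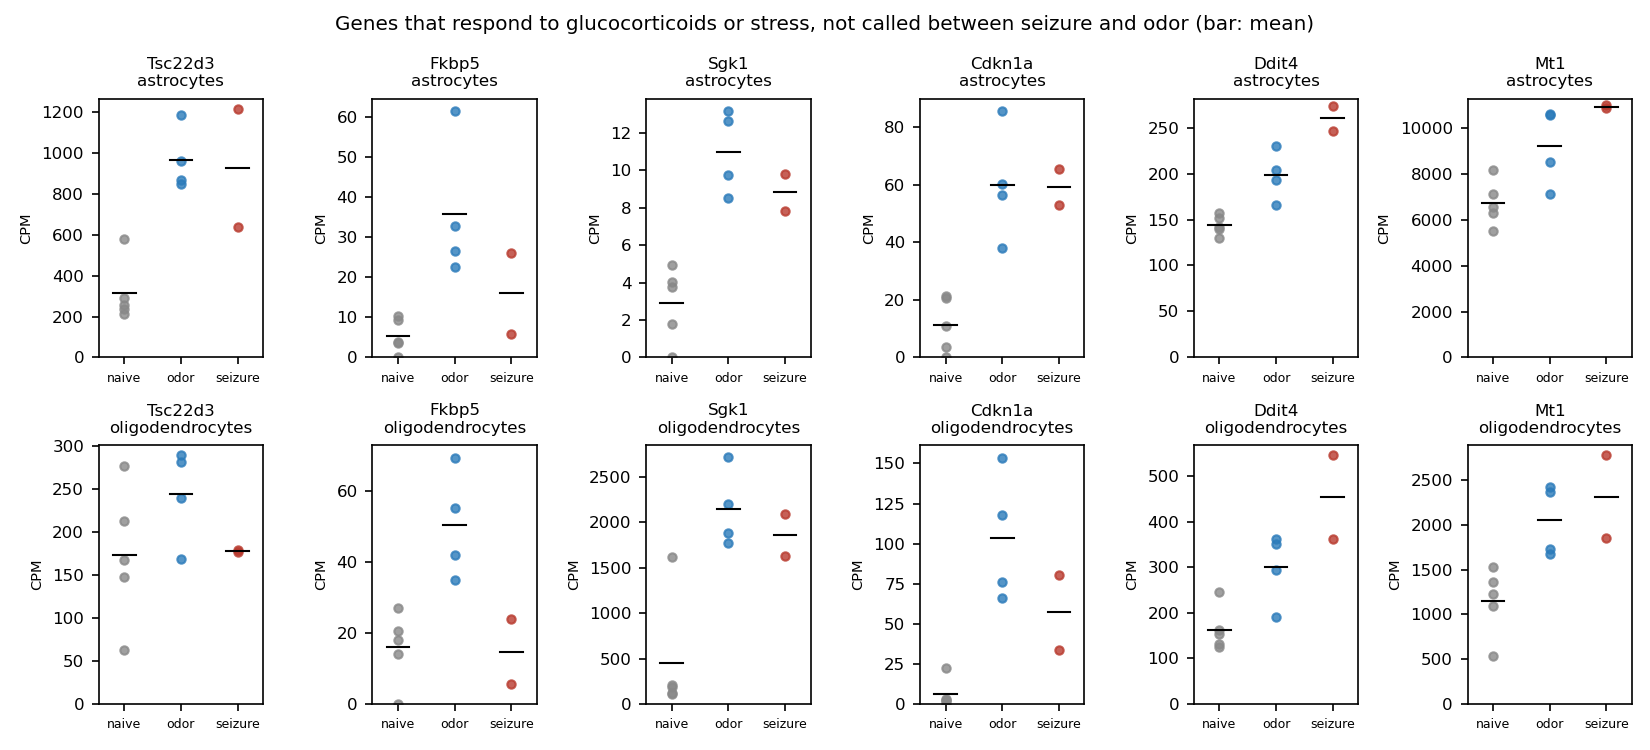
Level in CPM (y axis, from 0) of 6 genes that respond to glucocorticoids or stress, in astrocytes (upper row) and oligodendrocytes (lower row), for naive, odor and seizure libraries (1 point per library, bar at the mean). None was called between seizure and odor, and astrocyte Cdkn1a, for example, is at 0 to 21.4 CPM in naive libraries and at 37.8 to 85.5 CPM after odor.

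The same contrast was read per cell, with each cell thinned to 600 UMIs (11 of 3566 seizure cells and 28 of 5464 odor cells were shallower and left out). The share of astrocytes with a Fos UMI was 14.2% and 17.1% after seizure and 0.854%, 0.222%, 0.775% and 0% after odor. In the neuron class it was 6.07% and 11.03% after seizure and 0.371%, 0.688%, 0.910% and 3.49% after odor. Without thinning these shares were 27.6% and 32.6% after seizure and 0% to 2.56% after odor in astrocytes and 11.9% and 19.04% after seizure and 0.774% to 4.44% after odor in the neuron class. Mature oligodendrocytes, at 0.740% and 0.544% after seizure and 0.0623%, 0%, 0% and 0.147% after odor, and microglia, at 0.511% and 1.29% after seizure and 0.171%, 0%, 0.188% and 0% after odor, had the lowest shares of Fos after seizure, and free RNA in droplets may add to shares of that order in any class. Median depths before thinning were 2118 and 2213 UMIs in seizure oligodendrocytes, deeper than the 1328.5 and 1390.5 UMIs in seizure astrocytes, and 889 to 1606 UMIs in odor astrocytes. The share of precursors with an Egr1 UMI was 24.4% and 38.3% after seizure and 0%, 0%, 0% and 0% after odor, and with a Nr4a1 UMI 24.7% and 25.3% after seizure and 2.68%, 8.26%, 3.80% and 8.76% after odor. Without thinning, Egr1 was found in 45.8% and 62.2% of seizure precursors and in 0 of 178 odor precursors, which allows a share of up to 1.69%, and Nr4a1 in 44.9% and 45.1% after seizure and 8.11% to 19.05% after odor. That limit pools the cells of 4 libraries, covers counting error only and speaks of cells with a UMI, not of cells that express the gene. Endothelial cells with an Apold1 UMI made up 55.02% and 68.97% after seizure and 12.6%, 7.93%, 10.2% and 10.9% after odor, and microglia with a Nfkbia UMI 43.4% and 51.7% after seizure and 15.7%, 27.8%, 19.7% and 10.7% after odor. Without thinning they made up 70.5% and 80.8% after seizure and 13.9% to 27.1% after odor and 63.1% and 69.7% after seizure and 14.7% to 43.4% after odor. All these shares were higher in both seizure libraries than in any odor library. With 2 libraries against 4 the exact two-sided permutation test cannot give a p below 0.0667, which is the value for each of the shares just named. Astrocytes with a Tsc22d3 UMI made up 33.1% and 49.6% after seizure and 40.7%, 48.9%, 44.1% and 38.1% after odor (p = 0.933, exact permutation test), with overlap, and 58.4% and 76.1% after seizure and 54.7% to 74.4% after odor without thinning.

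**Figure D5:**
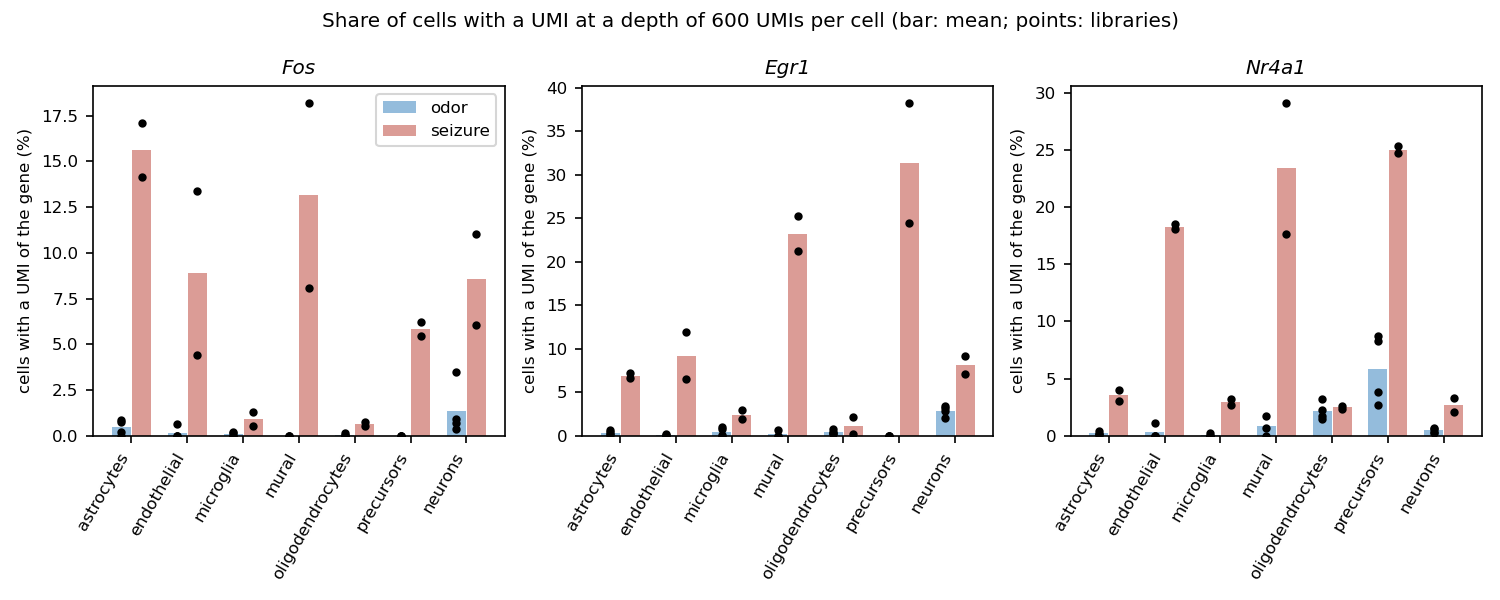
Share of cells (%) with at least 1 UMI of Fos, Egr1 or Nr4a1 at a common depth of 600 UMIs per cell, by class (x axis), for odor (blue) and seizure (red) libraries, with bars at the mean and 1 point per library. Precursors reach 38.3% for Egr1 after seizure and stay at 0% after odor, whereas oligodendrocytes overlap for Nr4a1.

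Class shares of cells did not pass a test that could not reach 0.05. Oligodendrocytes made up 6.45% and 8.99% of seizure libraries and 9.49% to 25.9% of odor libraries (exact permutation p = 0.2, two-sided). Endothelial cells made up 4.41% and 5.17% after seizure and 2.82% to 4.24% after odor (exact permutation p = 0.0667, the smallest possible, adjusted over 7 classes 0.467). Neuron-class cells made up 48.6% and 39.8% against 21.2% to 44.9% (exact permutation p = 0.467).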

How the data were processed

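The authors deposited UMI counts, whole numbers for each gene in each cell, and per the file headers each cell's name holds its library and class. Per the submitters' processing notes, bcl2fastq 2.17.1.14 and STAR 2.5.0a were used with mm10. For the counting tool, the cell filters and strand the sources used here give nothing, and reads of overlapping genes may be mixed. No doublets were removed here. Counts were summed per library and class (at least 10 cells) and tested with edgeR 4.0.16 (TMM, filterByExpr, quasi-likelihood F-test, R 4.3.3), 1 fit per class over naive, seizure, immobilization and odor libraries, with seizure minus odor as the contrast and Benjamini-Hochberg adjustment within a class. SE is the log2 difference divided by the root of F. Class differences were tested with the library as a block. Intervals and floors cover counting error only. Alternatives were DESeq2 1.42.0, relative log expression scaling, no filter on low counts, other sets of libraries and cells, age, a replicate block and leaving out each library.

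The named genes were up to 10 per direction and class by smallest p, called members of 23 lists, 20 fixed genes and genes called in 3 or more classes. Members and lists were chosen with earlier results of these data known. Of 58 names, 55 were found in GENCODE vM21 and 3 by a RefSeq synonym. The fit was tested on simulated counts with 200 genes changed in each class: in astrocytes (10575 genes) it recovered 98% of genes raised and 82% of genes lowered by a log2 of 2, and 48% and 30% at a log2 of 1. At a log2 of 2 the shares were 100% and 82% in neurons (10250 genes), 98% and 66% in oligodendrocytes (7467), 94% and 48% in microglia (6966), 94% and 52% in precursors (4997), 92% and 56% in endothelial cells (3965) and 76% and 46% in mural cells (1020). Unchanged genes called numbered 10 in astrocytes, 19 in neurons, 8 in oligodendrocytes, 2 in mural cells and 4 in each of the other 3 classes. In neurons, astrocytes and oligodendrocytes they made up a larger share of the simulated calls than the threshold of 0.05 stands for.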

Additional observations from a re-analysis of the deposited data

Results flagged for a closer look

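In 12 of 98 groups of 4 odor libraries, 1 library lay far from the other 3. Chance gives about 1 in 20 for continuous values, but that rate cannot be set against the 12, since 5 of them hold UMIs in 1 library only, which fixes the outcome. Odor 4, the library with the fewest cells, was that library for astrocyte Emd (92.0 CPM) and Nkx6-2 (362 CPM), microglial Dusp1 (56.1 CPM), precursor Nr3c1 (31.2 CPM) and the share of precursors (9.88% of cells). Odor 1 was that library for endothelial Adamts1 (118 CPM) and Fos (29.4 CPM) and, in microglia, for the summed astrocyte markers (4691 CPM) and oligodendrocyte markers (2132 CPM). Odor 2 was the 1 odor library with UMIs of endothelial Nr4a1 (16.5 CPM) and neuronal Npas4 (2.79 CPM), and odor 3 that with UMIs of microglial Nr4a1 (4.35 CPM). The seizure group has too few libraries for this check.

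The seizure minus odor difference of 18 gene and class pairs discussed in the report (15 of them called in the class or in astrocytes, the others added after their values were seen) differed from that of astrocytes by the direct test (log2, class minus astrocytes, adjusted p under 0.05). In endothelial cells these were Id1 (-1.76) and Cyr61 (7.67, with no UMI in the odor endothelial cells, so that its size depends on the prior count). Microglia differed in Junb (-3.26), Arrdc3 (3.36), Zfp36 (-2.62), Zzef1 (2.502) and Nfkbia (1.17), and mural cells in Cyr61 (3.34). Neurons differed in Egr1 (-2.83), Dio2 (-1.32), Malat1 (1.15), Meg3 (0.88) and Avp (3.62, with 5.04 CPM in seizure 1 and 729 CPM in seizure 2). Precursors differed in Id2 (1.35), 9330159F19Rik (1.58) and Nr3c1 (1.58), and oligodendrocytes in Nr4a1 (-3.98) and Hist1h1c (1.65). Precursors also differed in genes of both signs that are not among these 18. The smallest p in precursors belonged to negative values, those of Pdcd4 (-1.69), Phyhipl (-1.27), Fam13c (-1.79), Cnp (-1.14, an oligodendrocyte marker) and Pik3r3 (-1.68).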

How the results depend on the processing

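None of the 79 called differences changed sign in an alternative where it was tested. Of the 79 calls, 77 were kept with relative log expression scaling, 73 with age as a covariate and 51 with DESeq2. The counts of genes called moved by over 1.5 times as follows. With the seizure and odor libraries alone there were 36 in astrocytes, 10 in mural cells, 20 in oligodendrocytes and 53 in precursors. Without a filter on low counts there were 23 in microglia, 15 in mural cells, 22 in oligodendrocytes, 14 in precursors and 26 in neurons. DESeq2 called 6 in microglia and 4 in neurons. Age as a covariate gave 3 in mural cells and 10 in precursors, and at least 30 cells gave 8 in precursors. Without the 5% of cells with most UMIs there were 28 in microglia and 2 in mural cells. In neurons, 6 were called in the cells of the neuron table, 5 outside it and 0 in clusters N1 to N12, a set chosen after seeing the data (297 at an unadjusted p under 0.05, edgeR; DESeq2 was not run on it).

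Leaving out 1 library at a time gave 10 to 25 calls in astrocytes, 11 to 19 in endothelial cells, 4 to 13 in microglia, 0 to 4 in mural cells, 1 to 8 in oligodendrocytes, 3 to 6 in precursors and 6 to 14 in neurons. The lowest counts came without seizure 1 in astrocytes, without seizure 2 in endothelial cells and microglia, and without odor 1 or seizure 2 in mural cells. Differences from astrocytes numbered 1 to 5 in endothelial cells, 2 to 9 in microglia, 0 to 4 in mural cells, 3 to 15 in oligodendrocytes, 4 to 24 in precursors and 4 to 19 in neurons. Where 1 seizure library remains, it is assumed to vary like the other groups. The cause of these moves was not tested.

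Seizure and odor libraries share replicate numbers 1 and 2, and their deviations showed little correlation over genes (0.068 and -0.022 in astrocytes, -0.017 and -0.079 in neurons). Taken from the mean of 2 libraries, the deviation of seizure 2 is that of seizure 1 with its sign turned. Both correlations of a class thus rest on 1 seizure deviation, so the check cannot decide whether libraries were paired. With a replicate block, 33 genes were called in astrocytes, 22 in endothelial cells, 21 in microglia, 6 in mural cells, 4 in oligodendrocytes, 10 in precursors and 8 in neurons. The fit with at least 30 cells could not be run in mural cells. Depth limits mural and endothelial cells most, since 1020 and 3965 genes passed the filter there.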
